A study of Homo sapiens with 6 samples.

Results

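The 44 genes described here encode proteins of homologous recombination and of the Fanconi anaemia pathway, together with the ATM and ATR checkpoint that starts them. They were chosen by name from the gene table, which lists 58735 genes, and all 44 were found. Homologous recombination repairs a double-strand break by cutting back (resecting) its ends, pairing the exposed strand with the intact sister chromatid and copying it. The Fanconi pathway unhooks crosslinks that join both DNA strands, by attaching ubiquitin to the FANCD2-FANCI pair, and then hands the break to homologous recombination. Loss of BRCA1, BRCA2 and related genes in breast cancer is known for making cells sensitive to crosslinking drugs, and most of these genes are transcribed more strongly in dividing cells.

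RNA had been sequenced from MDA-MB-231 cells, a triple-negative breast cancer line, and from ADRr cells derived from them. In the tables the ADRr libraries carry the name MB_ADR12 and the parent libraries MB_parent, with 3 of each. ADRr cells had been selected in stepwise rising concentrations of Adriamycin (ADR, doxorubicin, a topoisomerase II poison that breaks DNA), and single clones had then been isolated by limiting dilution. A cloned line is 1 lineage, so what belongs to drug resistance and what belongs to this clone cannot be told apart. The dose, if any, in which ADRr cells grew at harvest is not given in the sources used here. The series record speaks of 3 time points that the sample labels do not name, and nothing states that the libraries of a group came from separate cultures. P-values therefore measure the spread between these libraries, which may be technical.

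Total counts ranged from 15983985 to 18272314 per library, and TMM normalization factors from 0.987 to 1.01. Of the markers that fit MDA-MB-231 cells, all 6 (VIM, CD44, KRT8, KRT18, EGFR and AXL) were measured, with summed levels of 690 to 717 FPKM (counts per length and depth) in parent and 593 to 596 FPKM in ADRr libraries. The sums hide changes in both directions. In ADRr cells 2 of the 6 rose (EGFR to 263% and CD44 to 174% of the parent level) and 4 fell, KRT8 the most, to 24.9%. ESR1, PGR, KRT5 and KRT14 had at most 3 counts in any library. Of the other 2 genes expected to be low, CDH1 fell and EPCAM rose in ADRr cells, and the summed level of the 6 genes expected to be low was 6.32 to 7.96 FPKM in parent and 11.4 to 11.8 FPKM in ADRr libraries. The 7 markers of blood and endothelial cells together stayed at or below 0.222 FPKM in each library. Counts were compared by edgeR's quasi-likelihood test over 15242 genes, and a gene was called higher or lower at an adjusted p of at most 0.05 with a fold change of at least 1.2. All 44 genes passed the filter on low counts, with 76 to 2852 counts in each library. Gene coordinates are given as in the table, on GRCh38. Normalized counts below are counts scaled to a library of 17126283 counts.

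Most of the repair genes were lower in ADRr cells. Of the 44 genes 29 (65.9%) fell, 2 (4.55%) rose and 13 were not called. Among all tested genes 29.6% fell and 29.2% rose (58.8% in either direction), so the share of repair genes that fell lay above this background and the share that rose below it. The median log2 fold change was -0.55 over the 44 genes and -0.006 over all tested genes. A log2 fold change of -1 or below was found in 10 of them: RAD54L, FANCG, BRIP1, FANCD2, EXO1, FANCI, UBE2T, EME1, RAD51D and TOPBP1. Falls of this size made up 9.05% of all tested genes. The other 19 genes that fell kept 50.2 to 80.6% of the parent level. The summed level of the 44 genes was 358 to 394 FPKM in parent libraries and 245 to 254 FPKM in ADRr libraries, 66.5% of the parent mean.

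**Figure D1:**
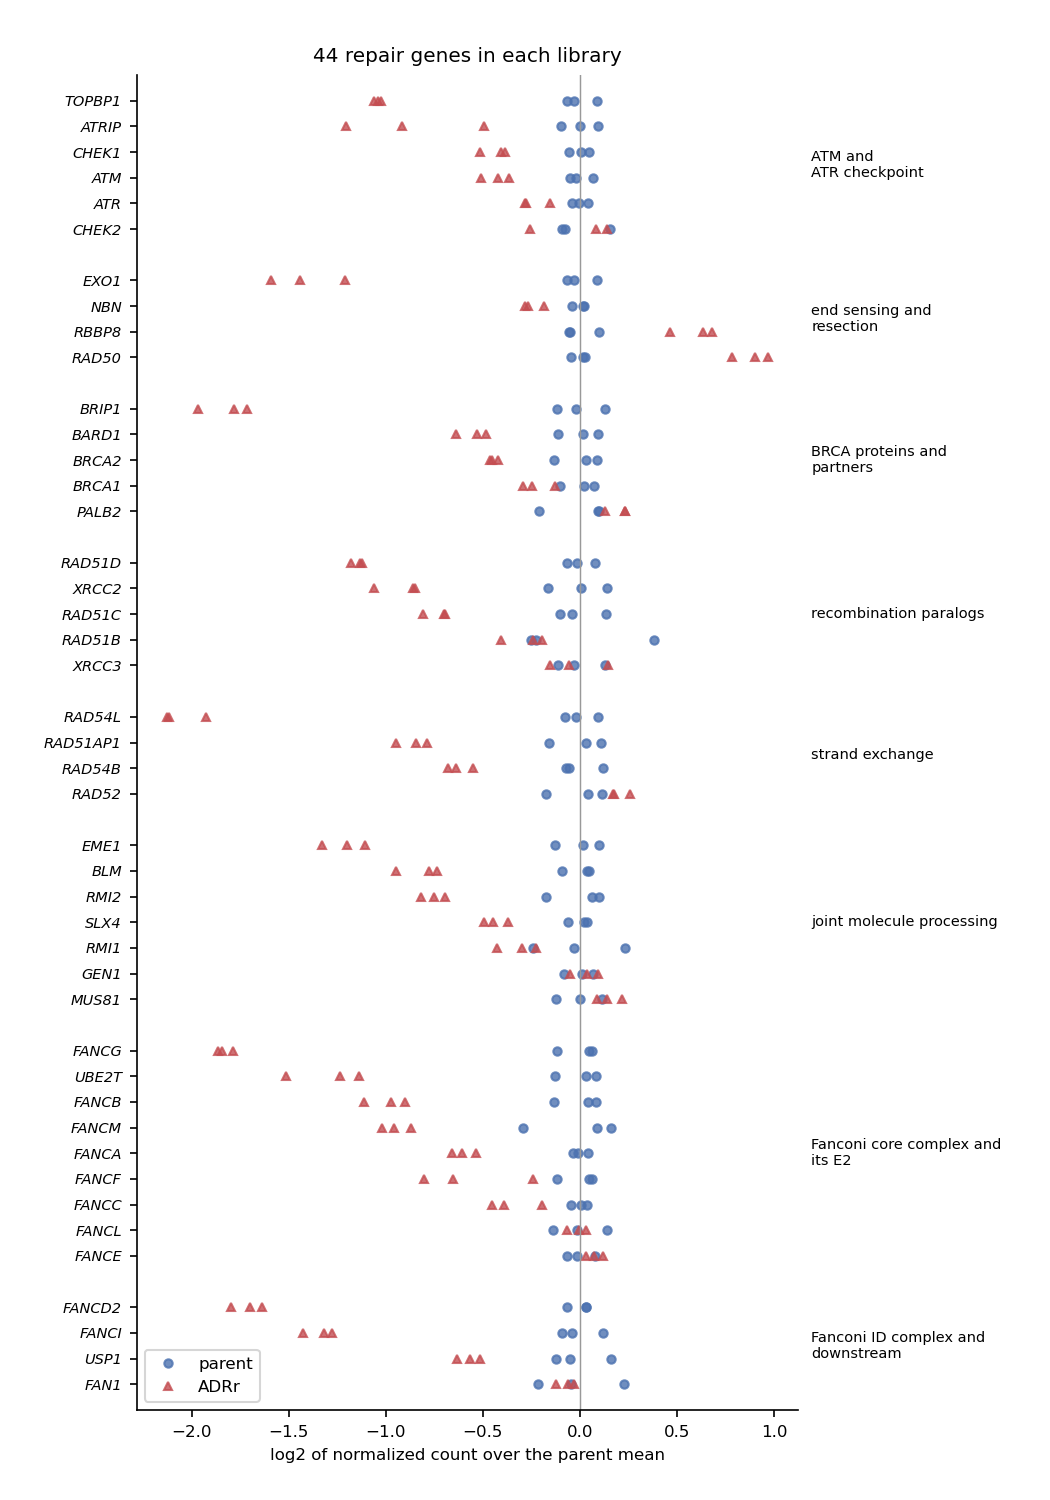
Each row is 1 repair gene, grouped by role, and each symbol is 1 library: the x axis gives the log2 of its normalized count over the mean of the 3 parent libraries (circles parent, triangles ADRr). In 31 genes every ADRr library lies left of every parent library, in 4 every one lies right, and in 9 the groups overlap.

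In 31 genes every ADRr library lay below every parent library, against 34.7% of all tested genes, and in 4 every ADRr library lay above, against 34.5%. The plot of the 44 genes in each library shows that the triangles of the 10 largest falls stand clear of the circles, while the spread within a group is small beside the shift. Of the 44 genes 12 share at least 10% of their exonic bases with another gene on either strand, which makes their counts less certain. RAD50, RAD54B, ATRIP and XRCC3 are described below, and in the others the share was 25.1% for RAD54L, 24.3% for FAN1, 23.6% for FANCA, 19.7% for FANCL, 16.4% for EME1 and ATR, 14.1% for MUS81 and 11.3% for FANCF. In bulk RNA, fewer cells of a kind and less RNA per cell cannot be told apart. Genes of the dividing cell fell along with the repair genes. Of 34 S phase genes, none of them among the 44, 34 fell, with a median log2 fold change of -1.08, and their summed level was 44.8% of the parent mean. Of 52 G2/M genes 45 fell and 0 rose by edgeR, with a median of -0.97 and a summed level of 55.7% of the parent mean. The part of cell cycle in the results below was not tested.

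The checkpoint genes start the response: ATM answers to double-strand breaks and ATR, with its partner ATRIP, to single-stranded DNA. Of 6 genes 4 fell (TOPBP1, ATRIP, ATM and CHEK1), with a median log2 fold change of -0.43 for the 6. TOPBP1 (ENSG00000163781, chr3:133598175-133662380, minus strand), the activator of ATR, fell most. TOPBP1 had 1657, 1801 and 1617 normalized counts in the parent libraries and 823, 832 and 811 in the ADRr libraries. The ADRr libraries lay close together and far below the parent ones, at 48.6% of the parent level (log2 fold change -1.04, SE 0.064, adjusted p = 2.01e-12). ATRIP kept 55.5% (log2 fold change -0.85, SE 0.14, adjusted p = 1.23e-05), with 286 ± 18.8 normalized counts (SD, n = 3) in parent and 159.5 ± 40.04 in ADRr cells. Of its exonic bases 27.9% are shared with TREX1 on the same strand, which had 0 counts. How reads in shared bases were counted is not given, so the 0 does not show that TREX1 was silent. The effect of the overlap on the ATRIP count was not tested. ATM kept 74.2% and CHEK1, the kinase below ATR, 74.05% of the parent level. ATR itself had 959, 992 and 935 normalized counts in parent and 795, 864 and 792 in ADRr libraries. Every ADRr library was lower, yet the fall was under the fold threshold (log2 fold change -0.24, SE 0.069, adjusted p = 0.00447), and without ADRr replicate 2 the gene passed it at -0.27. CHEK2, the kinase below ATM, had 234, 275 and 231 normalized counts in parent and 261, 206 and 272 in ADRr libraries. The CHEK2 groups overlapped around the same mean (log2 fold change 0.00, SE 0.12, adjusted p = 0.979). The files hold 4 pseudogenes named after CHEK2, all with 0 counts.

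The genes of end sensing and resection went in both directions. The MRE11-RAD50-NBN complex binds the broken end, RBBP8 (CtIP) starts the cutting together with it, and EXO1 is the exonuclease that extends the cut. RAD50 and RBBP8 were the 2 genes of the 44 that rose, EXO1 fell and NBN was not called. RAD50 (ENSG00000113522, chr5:132556019-132646344, plus strand), the ATPase that tethers the ends, had 184, 175 and 183 normalized counts in the parent libraries and 354, 311 and 338 in the ADRr libraries. All ADRr libraries lay far above the parent libraries, at 185% of the parent level (log2 fold change 0.89, SE 0.11, adjusted p = 1.31e-07). Its absolute level was low, 1.06 ± 0.0297 FPKM (SD, n = 3) in parent and 1.96 ± 0.132 FPKM in ADRr cells. Of the exonic bases of RAD50 79.7% are shared with AC116366.3 on the same strand, which had 0 to 5 counts, and the effect of that overlap on the count was not tested. RBBP8 (ENSG00000101773, chr18:22798261-23026488, plus strand) had 1048, 1163 and 1042 normalized counts in parent and 1681, 1499 and 1739.9 in ADRr libraries. Again the groups stood apart, at 151% (log2 fold change 0.60, SE 0.068, adjusted p = 6.95e-08), and RBBP8 went from place 12 to place 2 in the order of FPKM among the 44 genes. The 50 genes nearest to RBBP8 on chromosome 18 had a median log2 fold change of 0.52, close to that of RBBP8 itself.

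EXO1 (ENSG00000174371, chr1:241847967-241895148, plus strand) had 949.8, 1032 and 925 normalized counts in parent and 357, 321 and 419 in ADRr libraries. The highest ADRr library held less than the lowest parent library, and EXO1 fell to 37.9% (log2 fold change -1.40, SE 0.09, adjusted p = 4.14e-12). NBN, which recruits ATM to the break, had 1817, 1809 and 1743 normalized counts in parent and 1573, 1471 and 1489.6 in ADRr libraries. The NBN groups did not overlap, but the difference stayed under the fold threshold (log2 fold change -0.24, SE 0.057, adjusted p = 7.53e-04). It passed without parent replicate 3 (-0.27) or without ADRr replicate 1 (-0.26). MRE11, the nuclease of the same complex, is not one of the 44 and was looked up after its value was seen in the list of other pathway genes. MRE11 fell, from 9.39 FPKM to 5.89 FPKM (log2 fold change -0.68, SE 0.069, adjusted p = 1.12e-08). The complex thus held 1 gene that rose, 1 that fell and 1 under the threshold.

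Around BRCA1 and BRCA2 the largest change was in BRIP1. BRCA1 works as a pair with BARD1, PALB2 links BRCA1 to BRCA2, BRCA2 prepares the exposed strand for pairing, and BRIP1 (FANCJ) is a helicase that binds BRCA1. Of these 5 genes BRIP1, BARD1 and BRCA2 fell and BRCA1 and PALB2 were not called. BRIP1 (ENSG00000136492, chr17:61681266-61863521, minus strand) had 1004, 1113 and 939 normalized counts in parent and 261, 311 and 296 in ADRr libraries. BRIP1 fell to 28.4% of the parent level, with the groups far apart (log2 fold change -1.82, SE 0.089, adjusted p = 3.53e-14). BARD1 kept 68.4% (log2 fold change -0.55, SE 0.089, adjusted p = 1.13e-05) and BRCA2 73.5% of the parent level (log2 fold change -0.44, SE 0.079, adjusted p = 3.54e-05). BRCA1 had 1444, 1395 and 1282 normalized counts in parent and 1158, 1122 and 1259 in ADRr libraries. Its lowest parent library lay just above its highest ADRr library, and the fold stayed under the threshold (log2 fold change -0.22, SE 0.066, adjusted p = 0.00606). BRCA1 passed when parent replicate 3 or ADRr replicate 3 was left out, at -0.27 in both fits. PALB2 had 455, 457 and 369 normalized counts in parent and 466, 501 and 502 in ADRr libraries. Each ADRr library of PALB2 was a little above the parent libraries, and the gene did not pass the test (log2 fold change 0.20, SE 0.093, adjusted p = 0.0644).

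The paralogs RAD51B, RAD51C, RAD51D, XRCC2 and XRCC3 form small complexes that assist strand pairing. RAD51D, XRCC2 and RAD51C fell, while RAD51B and XRCC3 were not called, and the median of the 5 log2 fold changes was -0.73. RAD51D (ENSG00000185379, chr17:35092208-35121522, minus strand) had 502, 521 and 555 normalized counts in parent and 239.8, 242 and 233 in ADRr libraries. The ADRr libraries of RAD51D differed little from each other and lay at 45.2% of the parent level (log2 fold change -1.15, SE 0.091, adjusted p = 2.00e-10). XRCC2, its direct partner, kept 53.02% (log2 fold change -0.92, SE 0.084, adjusted p = 2.21e-09), and RAD51C 60.2% (log2 fold change -0.73, SE 0.097, adjusted p = 6.87e-07). RAD51B, the lowest of the 44 genes at 0.870 ± 0.227 FPKM (SD, n = 3) in parent cells, had 95.7, 148 and 97.4 normalized counts in parent and 96.1, 99.4 and 85.9 in ADRr libraries. Parent replicate 2 stood above the other RAD51B libraries, which overlapped (log2 fold change -0.27, SE 0.18, adjusted p = 0.189). XRCC3 had 717, 677 and 801 normalized counts in parent and 704, 809 and 657 in ADRr libraries. The XRCC3 groups overlapped fully (log2 fold change -0.02, SE 0.085, adjusted p = 0.857). Of the exonic bases of XRCC3 76.7% lie opposite exons of KLC1, and whether the counting used strand is not given in the sources used here.

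Among the proteins of strand exchange, RAD54L showed the largest fall of all 44 genes. RAD54L (ENSG00000085999, chr1:46247688-46278473, plus strand) is the motor protein that helps the broken strand invade the sister chromatid. RAD54L had 608, 632 and 683 normalized counts in parent and 168, 147 and 148 in ADRr libraries. The highest ADRr library lay far below the lowest parent library, and RAD54L was at 24.1% of the parent level (log2 fold change -2.05, SE 0.099, adjusted p = 2.62e-14). RAD51AP1, which stimulates strand pairing, kept 55.2% (log2 fold change -0.86, SE 0.085, adjusted p = 7.79e-09). RAD54B, a relative of RAD54L, kept 65.02% (log2 fold change -0.62, SE 0.16, adjusted p = 0.00144), though at 1.37 ± 0.0998 FPKM in parent cells its level was low, and 59.1% of its exonic bases are shared with FSBP on the same strand. RAD52, which anneals single strands, had 208, 169.8 and 198 normalized counts in parent and 229, 217 and 216 in ADRr libraries. Every ADRr library of RAD52 was above every parent library by a margin that did not pass the test (log2 fold change 0.20, SE 0.12, adjusted p = 0.136).

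After strand exchange the joined DNA molecules must be taken apart. BLM, RMI1 and RMI2 belong to the complex that dissolves double Holliday junctions, and MUS81-EME1 and GEN1 cut them, with SLX4 as a scaffold. Of the 7 genes EME1, BLM, RMI2, SLX4 and RMI1 fell, and MUS81 and GEN1 were not called. EME1 (ENSG00000154920, chr17:50373220-50381483, plus strand), the regulatory subunit of MUS81, had 259, 287 and 304 normalized counts in parent and 131, 123 and 113 in ADRr libraries. EME1 fell to 43.3% with no overlap of the groups (log2 fold change -1.21, SE 0.12, adjusted p = 8.84e-09). BLM kept 56.9% (log2 fold change -0.81, SE 0.088, adjusted p = 3.11e-08), RMI2 59.3% (log2 fold change -0.75, SE 0.11, adjusted p = 3.04e-06) and SLX4, the scaffold of the nucleases, 73.9% (log2 fold change -0.44, SE 0.086, adjusted p = 1.17e-04). RMI1 had 856, 1027 and 740.2 normalized counts in parent and 711, 649.9 and 747 in ADRr libraries. These groups overlapped, and the call (log2 fold change -0.31, SE 0.094, adjusted p = 0.00564) was lost without parent replicate 2 (-0.19) or without ADRr replicate 2 (-0.26).

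MUS81, the catalytic subunit, had 1150.5, 1057 and 1246 normalized counts in parent and 1224, 1339.6 and 1270.2 in ADRr libraries. Its groups overlapped slightly (log2 fold change 0.15, SE 0.068, adjusted p = 0.0595). GEN1 had 461, 478 and 431 normalized counts in parent and 488, 442 and 469 in ADRr libraries. GEN1 overlapped between the groups (log2 fold change 0.03, SE 0.085, adjusted p = 0.767), while the 50 genes around it on chromosome 2 had a median log2 fold change of 0.71.

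The Fanconi core complex is the ubiquitin ligase of the pathway, with FANCL as the subunit that carries the ligase activity and UBE2T as the enzyme that hands it ubiquitin. Of these 9 genes 7 fell and FANCE and FANCL were not called, with a median log2 fold change of -0.60. FANCG (ENSG00000221829, chr9:35073835-35080016, minus strand), a scaffold subunit, had 1046, 1188 and 1176 normalized counts in parent and 317, 312 and 329.7 in ADRr libraries. FANCG fell to 28.1% (log2 fold change -1.83, SE 0.08, adjusted p = 4.47e-15), the smallest adjusted p among the 44 genes. UBE2T (ENSG00000077152, chr1:202331657-202341980, minus strand) had 855, 886 and 766 normalized counts in parent and 292, 379.9 and 355 in ADRr libraries. In parent cells UBE2T had the highest level of the 44 genes after USP1, at 28.9 ± 2.21 FPKM, and in ADRr cells it was at 11.9 ± 1.56 FPKM (SD, n = 3 each), with 40.95% of the parent level in the fit (log2 fold change -1.29, SE 0.094, adjusted p = 4.17e-11).

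FANCB, the partner of FANCL in the catalytic part, kept 50.2% (log2 fold change -0.99, SE 0.12, adjusted p = 9.82e-08) and FANCM, the translocase that brings the complex to DNA, 51.99% (log2 fold change -0.94, SE 0.12, adjusted p = 3.25e-07). FANCA, which binds FANCG, kept 66.03% (log2 fold change -0.60, SE 0.065, adjusted p = 3.51e-08), FANCF, an adaptor subunit, 68.3% (log2 fold change -0.55, SE 0.15, adjusted p = 0.00289) and FANCC, which pairs with FANCE, 78.8% (log2 fold change -0.34, SE 0.08, adjusted p = 6.88e-04). In these 3 genes every ADRr library lay below every parent library. FANCL had 196, 217 and 179 normalized counts in parent and 197, 202 and 189 in ADRr libraries. The FANCL groups overlapped (log2 fold change -0.01, SE 0.12, adjusted p = 0.949), and the median of its 50 neighbours on chromosome 2 was 0.64. FANCE, which contacts FANCD2, had 674, 744 and 699 normalized counts in parent and 721, 766 and 742 in ADRr libraries. The ranges of FANCE overlapped as well (log2 fold change 0.07, SE 0.073, adjusted p = 0.384).

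Both subunits of the substrate of the core complex fell. FANCD2 (ENSG00000144554, chr3:10026414-10101930, plus strand) had 1009.5, 1011 and 945 normalized counts in parent and 285, 318 and 304 in ADRr libraries. FANCI (ENSG00000140525, chr15:89243949-89317261, plus strand), its partner, had 2762, 3085 and 2662 normalized counts in parent and 1136, 1055 and 1172 in ADRr libraries. Neither gene overlapped between the groups: FANCD2 fell to 30.6% (log2 fold change -1.71, SE 0.08, adjusted p = 1.68e-14) and FANCI to 39.6% (log2 fold change -1.34, SE 0.065, adjusted p = 2.91e-14). USP1, which removes the ubiquitin again, was the highest of the 44 genes in both groups, at 34.8 ± 3.59 FPKM in parent and 23.5 ± 0.988 FPKM in ADRr cells (SD, n = 3 each), and kept 67.4% (log2 fold change -0.57, SE 0.066, adjusted p = 8.72e-08). FAN1, a nuclease recruited to the ubiquitinated pair, had 405, 489 and 359 normalized counts in parent and 384, 409 and 401 in ADRr libraries. The ADRr values of FAN1 lay inside the parent range (log2 fold change -0.07, SE 0.10, adjusted p = 0.576).

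**Figure D2:**
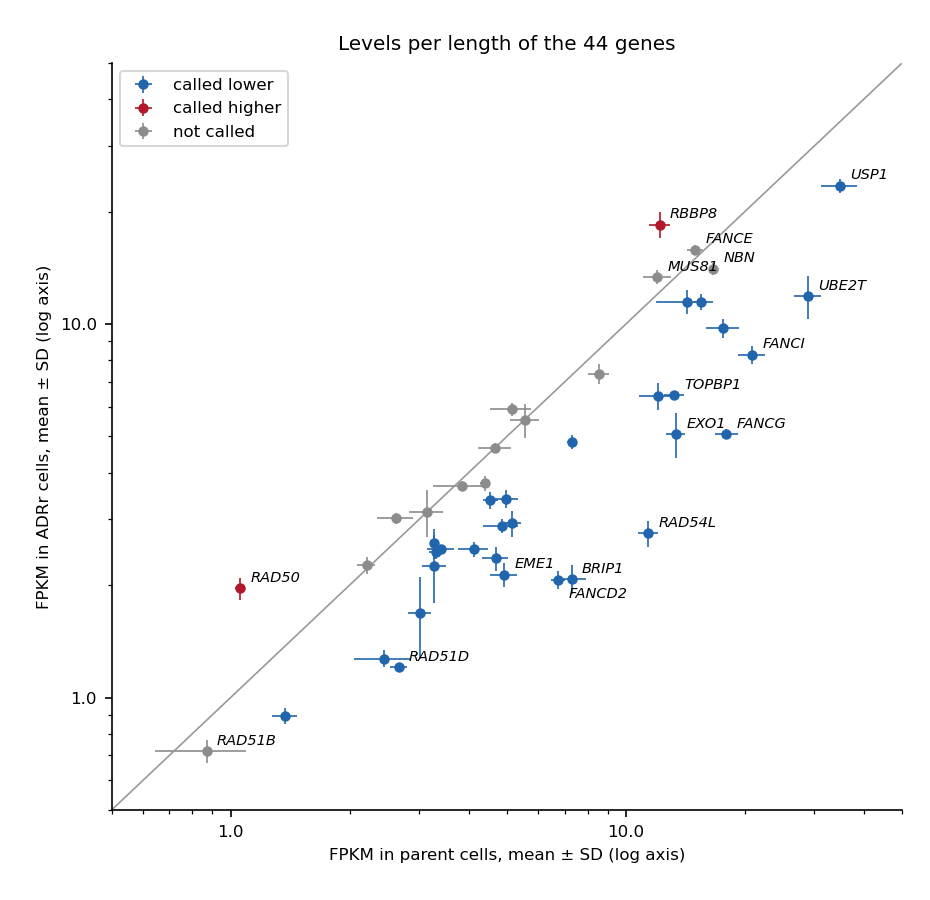
Mean FPKM of each of the 44 genes in parent (x axis) and ADRr cells (y axis), both on log axes, with SD bars over 3 libraries and a line of equal levels; colours give the call. USP1 leads both groups, the blue points of the genes that fell lie under the line, and RAD50 and RBBP8 lie above it.

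Levels per length spanned a wide range. In parent cells 15 of the 44 genes had a mean of at least 10 FPKM, and in ADRr cells 8 did, with medians over the genes of 5.05 and 3.39 FPKM. After USP1 and UBE2T, parent cells had FANCI at 20.9, FANCG at 17.97 and RAD51AP1 at 17.6 FPKM. In ADRr cells USP1 was followed by RBBP8 at 18.5, FANCE at 15.8, NBN at 14.1 and MUS81 at 13.4 FPKM. None of these 4 was called lower, as the plot of the levels shows.

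Partner genes did not all move alike. Ratios of FPKM within each library were compared for 11 pairs that act together, and in 9 of them the groups did not overlap. Groups apart were common in these data: of all tested genes 34.5% lay wholly above and 34.7% wholly below in ADRr libraries. Ratios of other gene pairs were not examined, so the share to compare with 9 of 11 is not known. With 3 libraries against 3 the exact permutation test cannot give a p below 0.1, which each of these 9 pairs reached (two-sided, 0.122 after Benjamini-Hochberg adjustment over the 11 pairs), so no pair could pass a threshold of 0.05. The ratio of EME1 to MUS81 was 0.375, 0.451 and 0.406 in parent and 0.178, 0.153 and 0.148 in ADRr libraries, a log2 difference of -1.36. For UBE2T over FANCL the ratios were 6.39, 5.95 and 6.24 in parent and 2.17, 2.75 and 2.75 in ADRr libraries (-1.29). Both pairs hold 1 gene that fell and 1 that was not called.

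The ratio of USP1 to FANCD2, the enzyme over its substrate, was 4.87, 5.62 and 4.95 in parent and 12.5, 10.3 and 11.3 in ADRr libraries (log2 difference 1.14). NBN over RAD50 was at 15.7, 16.4 and 15.1 in parent and at 7.05, 7.51 and 6.99 in ADRr libraries (-1.13). The exon overlaps given above, largest for RAD50 and XRCC3, leave the size of ratios with such genes uncertain. Smaller differences were seen for RAD51C over XRCC3 (-0.71), ATRIP over ATR (-0.63), BLM over RMI1 (-0.51), FANCD2 over FANCI (-0.37) and BRCA1 over BARD1 (0.33). Partners also differed in their chromosomal neighbours, as given below, and the ratios were not corrected for this. In RAD51D over XRCC2 (-0.23) and RMI2 over RMI1 (-0.44) the libraries overlapped, with an exact permutation p of 0.3. Without parent replicate 3 these differences were -0.11 and -0.28. The plot of partner ratios shows EME1/MUS81, UBE2T/FANCL, NBN/RAD50 and USP1/FANCD2 as the widest gaps.

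**Figure D3:**
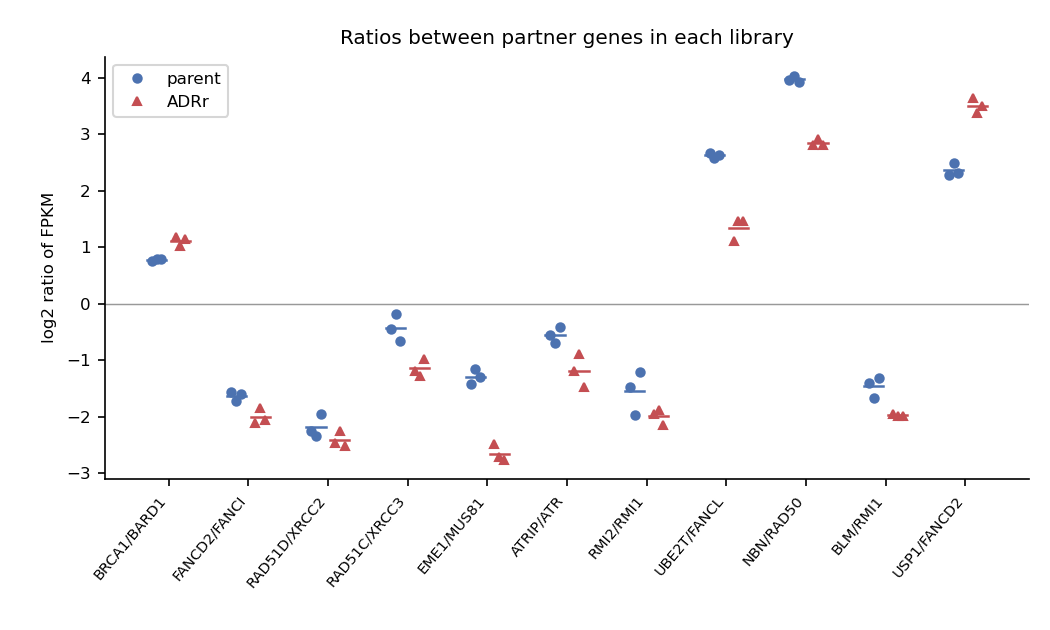
Log2 ratio of the FPKM of 2 partner genes (y axis) in each library for 11 pairs (x axis), with circles for parent and triangles for ADRr libraries and a line at each group's mean. The groups are apart in 9 pairs and overlap in RAD51D/XRCC2 and RMI2/RMI1.

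Gene copy number was not measured, so each gene was also set beside its 50 nearest tested neighbours on the chromosome. All 29 genes that fell lay below the median of their neighbours, and RAD50 and RBBP8 lay above theirs, RBBP8 by only 0.078. This was largely set by choosing genes for their own change, as the neighbour medians around the 29 genes centred on -0.056. Over the 44 genes the median difference from the neighbours was -0.56 on the log2 scale. The neighbours themselves were lowered around ATRIP (-0.65) and FANCD2 (-0.64) on chromosome 3, FANCG (-0.50) on chromosome 9, and BLM (-0.50) and FANCI (-0.48) on chromosome 15. They were raised around GEN1 (0.71), FANCL (0.64) and RBBP8 (0.52). Net of the neighbours, FANCD2 was at -1.07, FANCG at -1.33, BRIP1 at -1.83, RAD54L at -1.87, FANCI at -0.86 and RAD51D at -0.76. Smaller net falls were left for BLM (-0.32), RAD54B (-0.22, with neighbours at -0.40) and ATRIP (-0.20), among others. GEN1 (-0.68) and FANCL (-0.65), not called on their own, lay below their neighbours. Between partners the neighbour medians often differed in the direction of the ratio. Examples are BLM (-0.50) and RMI1 (0.30), ATRIP (-0.65) and ATR (0.009), and UBE2T (-0.04) and FANCL (0.64). They differed the other way for EME1 (0.09) and MUS81 (-0.17) and for RAD51C (0.08) and XRCC3 (-0.05). What part copy number had in any of these values was not tested.

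**Figure D4:**
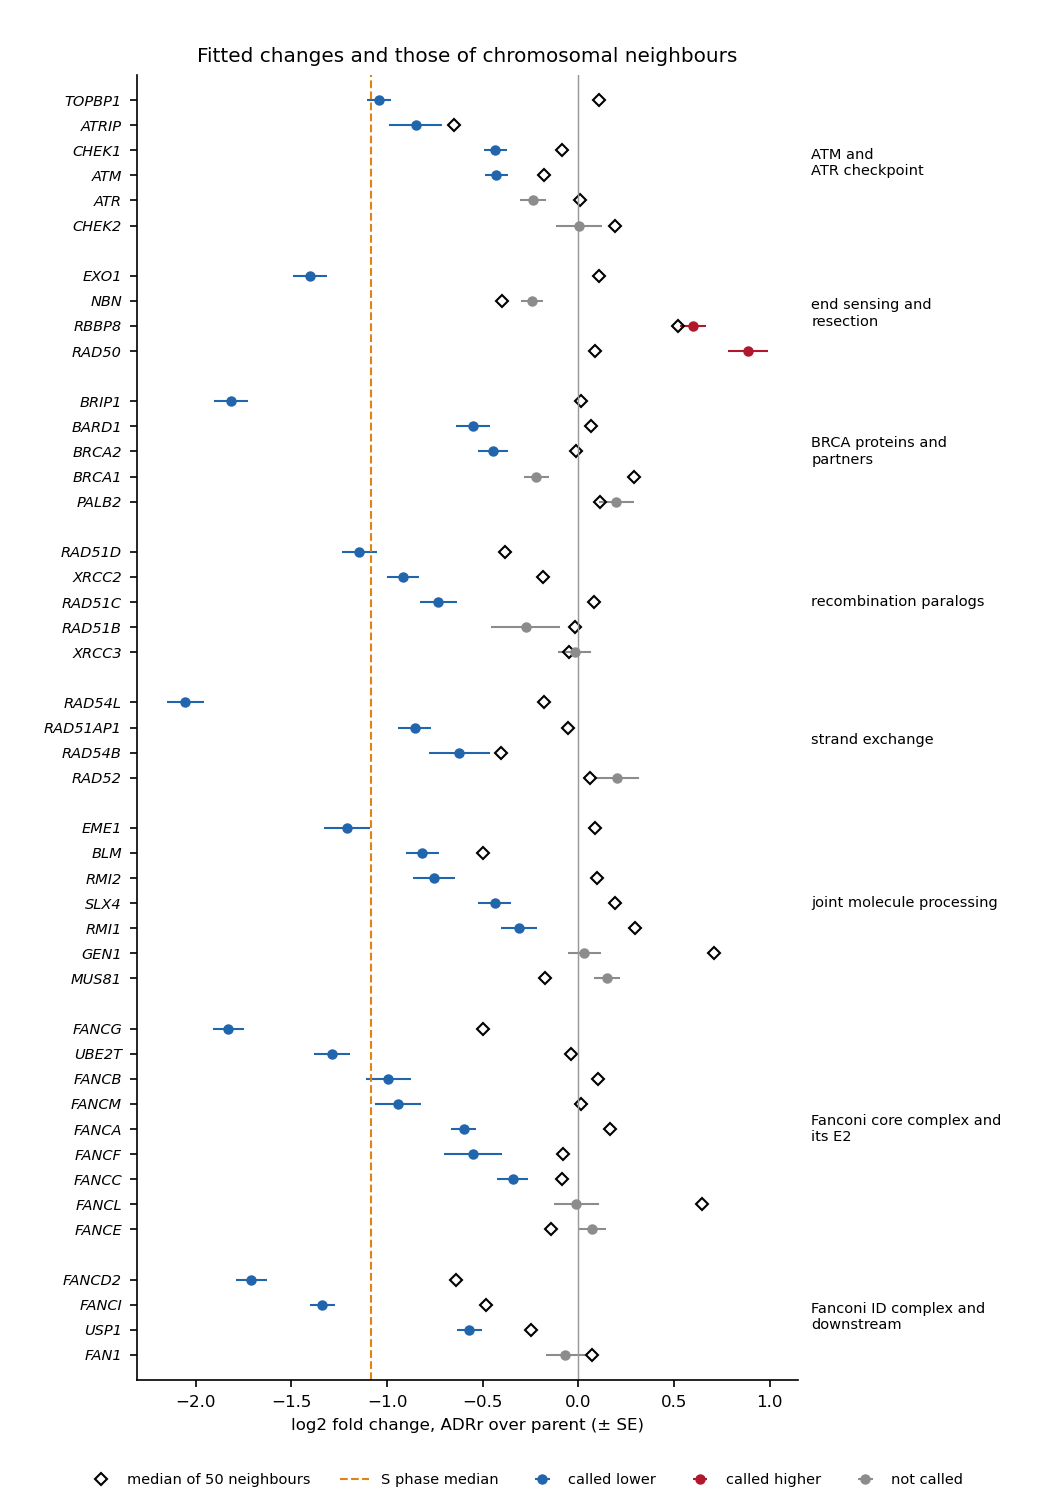
Fitted log2 fold change of each of the 44 genes with its SE (x axis, points coloured by call), the median log2 fold change of its 50 chromosomal neighbours (open diamonds) and the S phase median of -1.08 (dashed line). The 29 genes called lower lie left of their diamonds, and 9 genes lie left of the dashed line.

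Measured against the S phase genes, 9 of the 44 genes fell by more than that list's median of -1.08: RAD54L, FANCG, BRIP1, FANCD2, EXO1, FANCI, UBE2T, EME1 and RAD51D. As that median lies below -1, these 9 are by arithmetic among the 10 genes with a log2 fold change of -1 or below, TOPBP1 being the other one. Of all tested genes 9.05% were called lower with a log2 fold change of -1 or below. RAD54L (-2.05) was thus 0.97 below the S phase median, and RAD50 (0.89) was 1.97 above it.

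Promoter sequences were searched for the motifs of factors that act on cell cycle genes. Of the 44 genes 40 matched a RefSeq window on GRCh38.p14 of 250 bases before to 50 after a start, and FANCI, NBN, RAD54B and RMI2 did not match. E2F factors, which drive S phase genes, bind sites such as TTTCCCGC, TTTGGCGC, TTTCGCGC and TTTGCCGC, and NF-Y binds CCAAT. On either strand and in any listed window, 8 of the 40 genes (20%) held 1 of the 4 E2F motifs, against 3.99% of 27305 genes and 6.53% of tested genes. Among those that fell it was 7 of 26 (26.9%), against 7.96% of tested genes that fell. CCAAT was in 47.5% of the 40 genes, in 39.7% of all genes and in 42.6% of tested genes. The CHR motifs TTTGAA and TTCGAA of late cell cycle genes were in 15% of the 40 genes, 19.5% of all genes and 15.2% of tested genes. A match is a description of letters and not a bound site. Only these exact letters were searched for, so a site that differs from them by 1 letter was not counted.

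Shown are 3 genes with an E2F motif and a large fall (FANCD2, EXO1 and TOPBP1) and the falls of RAD54L and BRIP1, whose windows held no E2F motif. Each runs 5′ to 3′ on the gene's strand from 120 bases before to 30 bases after the first listed start, and capitals mark the E2F motifs and CCAAT on either strand. The windows are chr3:10026317-10026466, plus strand for FANCD2, chr1:241848084-241848233, plus strand for EXO1, chr3:133661912-133662061, minus strand for TOPBP1, chr1:46247568-46247717, plus strand for RAD54L, and chr17:61863499-61863648, minus strand for BRIP1.
FANCD2: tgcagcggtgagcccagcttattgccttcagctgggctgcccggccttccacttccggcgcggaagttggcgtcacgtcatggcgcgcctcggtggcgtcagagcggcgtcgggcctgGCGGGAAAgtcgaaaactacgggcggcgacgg
EXO1: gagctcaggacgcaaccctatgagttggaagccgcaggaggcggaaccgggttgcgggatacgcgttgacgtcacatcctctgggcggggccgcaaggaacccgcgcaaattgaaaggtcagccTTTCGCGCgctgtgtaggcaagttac
TOPBP1: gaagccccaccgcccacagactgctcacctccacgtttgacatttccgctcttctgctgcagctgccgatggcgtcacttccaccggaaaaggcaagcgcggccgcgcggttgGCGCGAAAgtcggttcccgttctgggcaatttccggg
RAD54L: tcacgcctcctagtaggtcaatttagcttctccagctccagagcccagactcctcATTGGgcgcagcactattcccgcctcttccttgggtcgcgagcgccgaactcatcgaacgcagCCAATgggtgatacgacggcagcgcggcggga
BRIP1: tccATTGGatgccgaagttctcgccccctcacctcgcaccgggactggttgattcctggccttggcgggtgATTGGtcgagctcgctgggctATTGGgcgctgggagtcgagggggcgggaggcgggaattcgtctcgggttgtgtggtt
In FANCD2 the motif spans the start, from base -2 to base 6, and in TOPBP1 from -7 to 1, while in EXO1 it lies from 5 to 12 (base 1 is the first transcribed base). RAD54L has 2 copies of CCAAT and BRIP1 has 3, and none of the marked E2F motifs overlaps a CCAAT here. What part any of these motifs had in the falls was not tested.

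Beyond the 44 genes, 58 other genes of these pathways had been listed, and 56 of them were tested. Of these 28 fell (50%), 11 rose (19.6%) and 17 were not called, with a median log2 fold change of -0.27, against backgrounds of 29.6% and 29.2%. Where the higher group averaged 20 normalized counts or more, the largest falls were DNA2 (log2 fold change -1.72, SE 0.092, adjusted p = 1.76e-13), ATAD5 (log2 fold change -1.45, SE 0.11, adjusted p = 4.66e-11) and CLSPN (log2 fold change -1.34, SE 0.073, adjusted p = 2.54e-13). DNA2 is a nuclease of long resection, ATAD5 unloads the PCNA clamp, and CLSPN (claspin) links ATR to CHEK1. The largest rises were HELB (log2 fold change 0.98, SE 0.22, adjusted p = 4.79e-04), a helicase that limits resection, SFR1 (log2 fold change 0.89, SE 0.10, adjusted p = 1.13e-07) and ZSWIM7 (log2 fold change 0.68, SE 0.10, adjusted p = 2.82e-06), both known to assist strand exchange. HELB stayed low, at 0.296 FPKM in ADRr cells.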

How the data were processed

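The authors sequenced polyadenylated RNA of MDA-MB-231 parent and ADRr cells as paired-end reads. Per the labels and the methods, reads were cleaned, mapped to GRCh38 (hg38) with HISAT2 2.0.5 and counted per gene with featureCounts 1.5.0-p3. The submitters' processing notes also list fastp and DESeq2 1.20.0. Library kit details differ between the labels and the methods, and strandedness and the handling of reads in overlapping genes are not given in the sources used here. The deposited tables hold raw counts and FPKM values (counts per length and depth) for 58735 genes, with identifiers and exonic lengths of GENCODE 29 for the 102 pathway genes checked. No column was left unused among the 6 libraries.

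edgeR 4.0.16 (R 4.3.3) was run on the counts with filterByExpr, TMM and the quasi-likelihood test with Benjamini-Hochberg adjustment over 15242 genes, without a replicate block. Calls needed both an adjusted p at or under 0.05 and a change of 1.2-fold or more. Ratios of deposited FPKM were compared by the exact two-sided permutation test. Alternatives were other size factors, DESeq2 1.42.0, other filters, limma-trend 3.58.1 on log2(FPKM + 1) and log2(FPKM + 0.1), a replicate block, each library left out, other thresholds and other neighbour numbers. The tests were tested on simulated data. All 44 genes may be named. Every library is given for genes called with a log2 change of 1 or more in size, genes called higher and genes not called, and of the other pathway genes the 3 largest rises and falls. MRE11 was added after its value was seen. An item of these pathways is not reported here. The members and lists were chosen with earlier results of these data known. Same-numbered libraries did not deviate together (r of deviations 0.00735, -0.0213 and -0.0457 for the 3 numbers). The numbers thus gave no sign of a pairing, though a pairing by culture or time point is not excluded. Total counts per library of 15983985 to 18272314 gave a median SE of 0.0964 on the log2 scale over all tested genes.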

Additional observations from a re-analysis of the deposited data

How the results depend on the processing

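No called gene of the 44, no median of theirs and no partner ratio changed direction under any alternative run for it. The replicate block changed no call of the 44 genes (29 lower, 2 higher), nor did DESeq2, DESeq2's size factors, library size alone, no filter or a minimum of 10 counts. With each library left out in turn, 28 to 31 of the 44 genes were lower and 2 higher each time. With the adjusted p alone 32 were lower. A fold threshold of 1.2 on the log2 scale left 8 of the 44 genes lower and 0 higher, 4 other pathway genes lower and 0 higher, 15 S phase genes and 19 G2/M genes lower, and 972 of all tested genes lower and 1114 higher. With the adjusted p alone 1 G2/M gene was higher, and with each library left out in turn 0 to 1 (1 without parent replicate 2 or without ADRr replicate 2). Limma-trend on log2(FPKM + 1) gave a median log2 fold change of the 44 genes of -0.40 with and without the filter, where a pseudocount shrinks low genes by construction. Under limma-trend RMI1 lost its call in all 3 settings, with adjusted p of 0.0651 to 0.145, and FANCC lost it with the pseudocount of 1 (-0.25 on the log2 scale). With 25 and 100 neighbours the median difference of the 44 genes from their neighbours was -0.49 and -0.52. Genes with few counts, such as RAD51B and RAD54B, had the widest SEs (up to 0.18), so smaller changes of theirs were not detectable at this depth.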

Other observations

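Among the 102 pathway genes, 6 share at least 50% of their exonic bases with another annotated gene on the same strand: RAD50, RAD54B, SLX1A, SLX1B, CENPS and RTEL1. Of these 5 had an FPKM of at most 2 in each library, and the other, RAD50, reached 2.08 FPKM. Of the other 96 genes 6 stayed at or below 2 FPKM in each library, and the median of their highest FPKM was 7.80. SLX1A and SLX1B, near-identical copies that encode the partner nuclease of SLX4, had at most 1 count in any library. RTEL1, a helicase that takes apart strand invasion intermediates, had 38 to 107 counts, and CENPS, which helps FANCM hold DNA, had 14 to 36. How reads in shared exons were counted was not tested. XRCC3, of which 76.7% of exonic bases lie opposite KLC1, was counted at a mean of 5.57 FPKM in parent cells, and the effect of that overlap was not tested either.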
